A study of Gallus gallus with 60 samples.

Results

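The posterior cerebrum of Lohmann Brown (LB) hens from compartments of 54 hens was compared with that of LB hens from compartments of 36 hens. LB is a commercial brown layer line, and all hens were 65 to 67 weeks old and lived in a small group housing system. The comparison held 14 hens from groups of 54 and 15 hens from groups of 36, 29 of the 60 hens of the series, chosen by the layer line and group size in their labels. The labels gave 17 LB hens from groups of 54, and 3 of them, hens 7, 8 and 16, were left out because their arrays showed loss of 5′ signal, described further on. Total RNA of each hen, taken without meninges, was hybridized to 1 Affymetrix chicken array of 38535 probe sets. The right side was sampled in 25 of the 29 hens and the left side in 2 hens of each group size. Both lines were kept in the same system but never together in a compartment, and larger compartments were given to larger groups. Hens had been picked by handling behaviour, plumage and skin lesions as stressed or unstressed layers, but the labels do not give which hen was which, nor its compartment or tier. Hens that shared a compartment were therefore treated as independent, and standard errors may be too small where they did.

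Hens recognise flock mates and settle a rank order through pecks and avoidance, and group size sets how many birds each hen meets. The avian cerebrum holds the pallium, which processes sensory and social information, above the striatum, which serves movement and reward. Social stress acts on the brain through corticotropin-releasing hormone and through corticosterone, whose receptors in the brain switch genes such as FKBP5 on, while neuronal activity switches on immediate early genes such as FOS and EGR1.

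Deposited values were log2 values in which the median of each probe set was 0 within each of 2 array sets, the first of hens 1 to 30 and the second of hens 31 to 60. They give differences between hens but no level of expression, so the tissue label could not be checked against levels of marker genes. Of the hens used, 4 from groups of 54 and 8 from groups of 36 were in the first set, and 10 and 7 in the second, and the set was a block in the fits reported unless stated otherwise. A difference is that of 54 minus 36 on the log2 scale, given with its standard error (SE).

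No gene passed the test between the group sizes. Among probe sets with a gene symbol, the smallest p-values belonged to DEDD, a death effector domain protein that binds caspases, which was 0.20 (SE 0.04) higher in groups of 54, and to ORAOV1, which was 0.26 (SE 0.06) higher. The 20 genes of blood vessel cells had a median difference of 0.06. Of them 4 (EGFL7, ENG, RGS5 and CLDN5) were higher at an unadjusted p under 0.05, by 0.20 to 0.38. Higher at such a p, by any size, were 3.57% of all genes. Other vessel genes such as PECAM1 (-0.25) and FLT1 (-0.02) were not higher. Each gene entered with 1 probe set, and another probe set of the vessel gene KDR was lower (-0.12). The peptide gene CCK was lower at both of its probe sets. None of these passed the adjustment for multiple tests. With limma, 0 of 38535 probe sets (0%) had an adjusted p under 0.05, and the smallest adjusted p was 0.603. At an unadjusted p under 0.05 there were 2275 probe sets (5.90%), 1288 higher and 987 lower in groups of 54. The unpaired t-test of the methods, which left out the array set, likewise gave 0 probe sets after adjustment and 2404 before it.

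**Figure D1:**
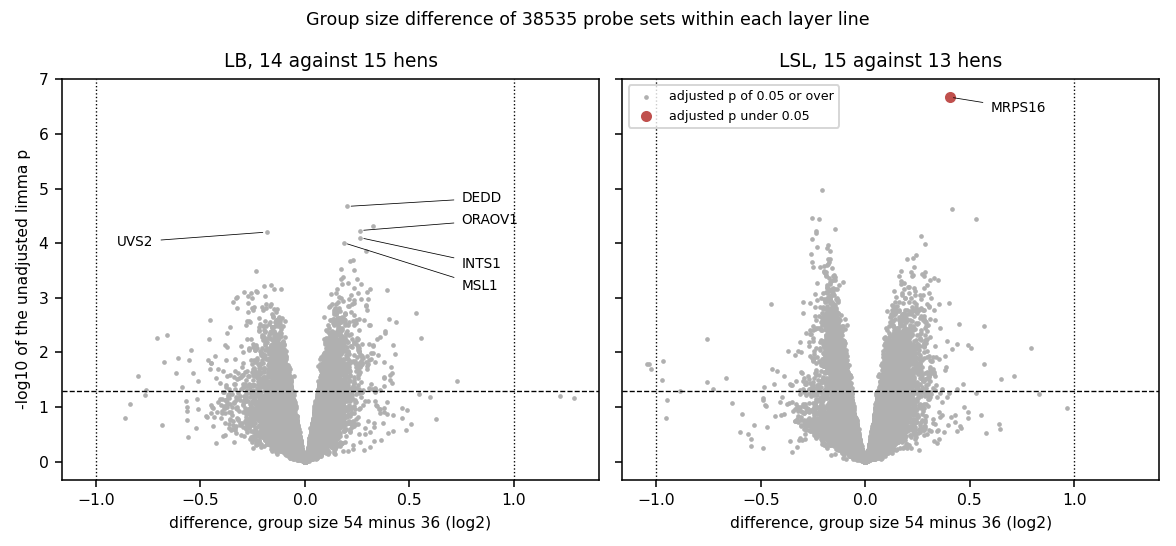
Difference between group sizes (log2, horizontal) against the -log10 of the unadjusted limma p (vertical) for 38535 probe sets in LB (left, 14 against 15 hens) and LSL (right, 15 against 13 hens). Dotted lines mark a log2 difference of 1 in either direction and the dashed line an unadjusted p of 0.05. In LB no probe set passed the adjusted threshold, and in LSL the red point, MRPS16, did.

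The size of the differences was limited as follows. The median size over all probe sets was 0.0384, and 95% of them lay under 0.144. The 95% confidence interval had a median half-width of 0.106, and it lay wholly within a log2 difference of 1 (2-fold) in either direction at 38486 probe sets (99.9%). Within 0.5 (1.41-fold) lay 37859 intervals (98.2%), and within 0.25 (1.19-fold) 33420 (86.7%). The intervals of 49 probe sets reached 1 or more, so a 2-fold difference was not bounded there. The measured difference was past 1 at 2 probe sets, past 0.5 at 33 (9 higher, 24 lower) and past 0.25 at 389 (142 higher, 247 lower). Compression of fold changes by the array was not measured, so these bounds hold for array signal. The shares count all probe sets, since those of genes without expression could not be set apart in centred values. Each interval is for 1 probe set, and the intervals are not joint bounds.

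Among the 12 probe sets with a gene symbol and the smallest p that were higher in groups of 54, DEDD came first. Relative to the fitted mean of the 36 hens of the same array set, the hens of 54 ranged from 0.07 over a median of 0.19 to 0.40. The hens of 36 ranged from -0.20 over 0.01 to 0.14. The fit held 1 group size difference for both array sets, so the 36 hens of a set need not average 0. All 14 hens of 54 lay above the median of the 36 hens and 9 lay above every one of them, so the groups still overlapped. The limma p of DEDD was 2.1e-05 before and 0.603 after adjustment (fold 1.15). Its second probe set gave 0.10 (SE 0.04).

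ORAOV1 (also LTO1), whose yeast counterpart serves ribosome assembly, ranged from 0.14 to 0.45 in the hens of 54 with a median of 0.25. In the hens of 36 it ranged from -0.29 to 0.28 with a median of -0.01. INTS1, the scaffold of the Integrator complex that processes small nuclear RNAs, was higher by 0.26 (SE 0.06), with 13 of 14 hens above the median of 36. MSL1, the scaffold of a histone acetyltransferase complex, was higher by 0.19 (SE 0.04) and CHEK1, a kinase of the DNA damage checkpoint, by 0.23 (SE 0.05). For both, all 14 hens of 54 lay above the median of the 36 hens.

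Several of the higher genes act on small GTPases or on membrane uptake. ARHGEF1, an exchange factor of RhoA, was higher by 0.18 (SE 0.05). ARHGAP42, a GTPase-activating protein of RhoA, was higher by 0.27 (SE 0.07), and RGL4, of the exchange factors of Ral, by 0.24 (SE 0.06). PACSIN1, which bends membranes in synaptic endocytosis, was higher by 0.17 (SE 0.04). The remaining 3 were CCDC30 at 0.21, ANKFN1L at 0.17 and LOC414835 at 0.31. No theme is drawn from these genes, since they were ordered by p and no list of them was tested.

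Among the 12 lower ones, UVS2 had the smallest p, with a difference of -0.18 (SE 0.04). Its values ran from -0.35 over -0.19 to 0.05 in the hens of 54 and from -0.16 over 0.04 to 0.14 in the hens of 36. PRKCA, the alpha form of protein kinase C, ran from -0.51 over -0.22 to -0.05 in the hens of 54 and from -0.22 over -0.03 to 0.27 in the hens of 36. All 14 hens of 54 were below the median of 36 for PRKCA, and 7 were below every hen of 36.

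CASK, a scaffold protein of synapses, differed by -0.25 (SE 0.07) and had all 14 hens of 54 below the median of 36. SPAG9 and MAPK8IP3, related scaffolds that tie JNK kinases to motor proteins on vesicles, differed by -0.35 (SE 0.10) and -0.27 (SE 0.08). PIK3CD, a catalytic subunit of phosphoinositide kinase, differed by -0.19 (SE 0.05), and ELOVL6, which lengthens fatty acids, by -0.23 (SE 0.06). HHLA2, a B7-family ligand of lymphocytes, differed by -0.33 (SE 0.09). KDR, the main receptor of vascular endothelial growth factor, differed by -0.12 (SE 0.03) at this probe set. The other 3 were DIPK2A at -0.20, DEPDC7 at -0.26 and LOC396098 at -0.27.

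**Figure D2:**
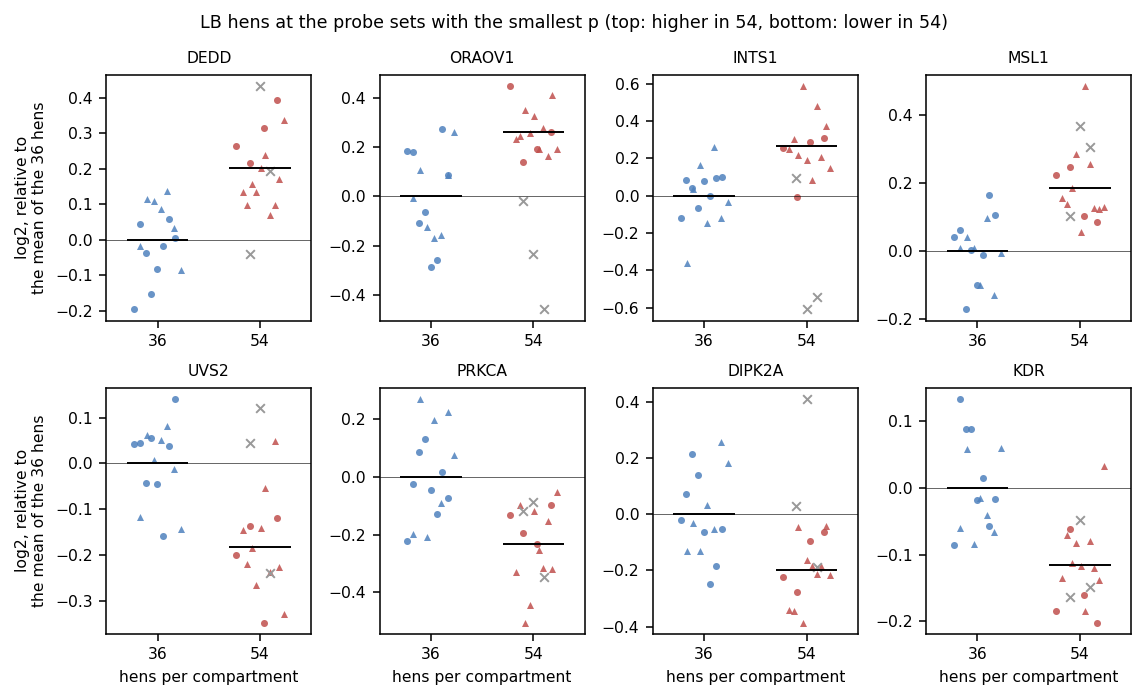
Values of single LB hens (log2, relative to the fitted mean of the 36 hens of the same array set) at the 4 higher and 4 lower probe sets with the smallest p. Circles are hens of the first array set, triangles hens of the second, grey crosses hens 7, 8 and 16, which were left out, and lines the means of the hens used. Hens of both group sizes overlap in every panel.

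In none of these 24 probe sets were the groups free of overlap (0 of 24), and overlap was not counted over all probe sets. All 24 had the same sign within each array set, but they were chosen by p over these same hens, so this is no independent support. The 95% interval lay within 0.5 in either direction for 22 of them, all but HHLA2 and SPAG9. Other probe sets of the same genes often gave less. Of the 57 other probe sets of 16 of these genes, 38 had the sign of the named one, 11 of them at an unadjusted p under 0.05. For ELOVL6 both others were lower, at -0.15 and -0.15, and LOC414835 repeated at 0.25. CASK was lower at 6 of 8 others. The 4 other probe sets of KDR, in contrast, lay between 0.00 and 0.06. The 9 others of SPAG9 lay between -0.12 and 0.03, and the 6 others of PRKCA between -0.09 and 0.02. For ARHGAP42 and ORAOV1, 1 other probe set each had the opposite sign at an unadjusted p under 0.05, both at -0.12.

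The same contrast in the other line used other hens. Lohmann Selected Leghorn (LSL) is a commercial white layer line, of which 15 hens from groups of 54 and 13 from groups of 36 were measured. No LSL hen was left out for 5′ loss. Hen 9, an LSL hen of a group of 54, had a 5′ minus 3′ signal of beta-actin of -1.33, below every LB hen used. Of the 24 probe sets, 16 had the same sign in LSL, and for 5 of these the LSL p was under 0.05 before adjustment. Over all probe sets, 11.7% had such an LSL p in either direction. The share with the same sign in both lines was not counted over all probe sets. The 5 were INTS1 (0.24 in LSL), MSL1 (0.12), CCDC30 (0.16), PRKCA (-0.17) and MAPK8IP3 (-0.17). DEDD (-0.05) and CHEK1 (-0.05) had the opposite sign in LSL. For DEDD the interaction of line and group size had a p of 0.000974, which was 0.435 after adjustment over all probe sets.

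**Figure D3:**
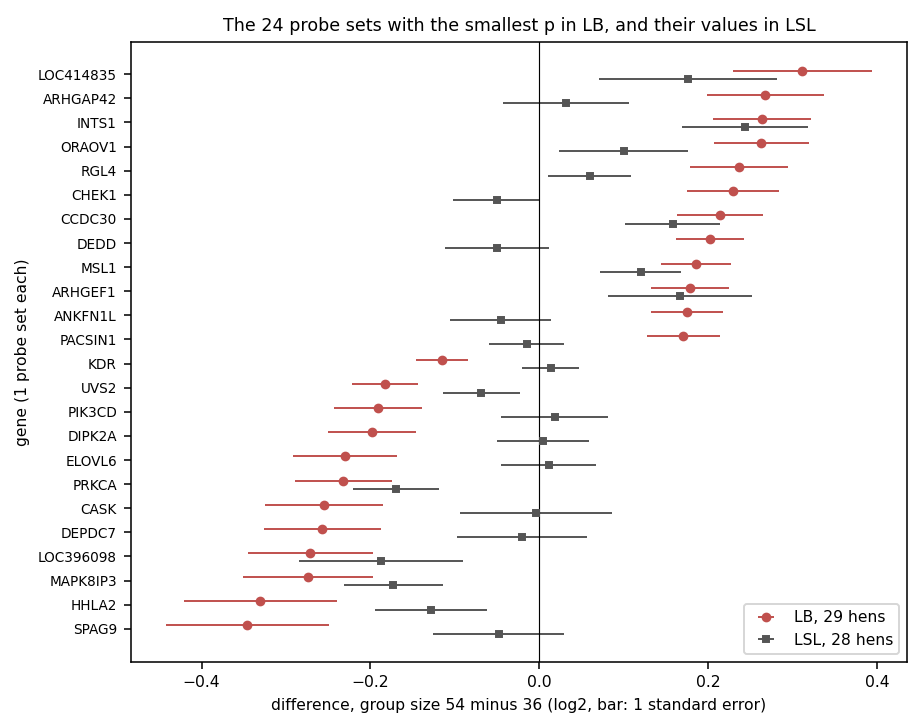
Difference between group sizes (log2, with 1 SE) in LB (red circles, 29 hens) and LSL (grey squares, 28 hens) for the 24 probe sets with the smallest p in LB. The LB values lie between -0.35 and 0.31 and were chosen for their p, whereas the LSL values were not, and 16 of 24 share the sign.

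Over all probe sets, LSL gave 1 with an adjusted p under 0.05 (0.0026%) and 4522 at an unadjusted p under 0.05 (11.7%). The 1 was MRPS16, a subunit of the mitochondrial ribosome, with 0.40 (SE 0.06, limma adjusted p = 0.00812) in LSL and 0.17 (SE 0.08) in LB. Of the 2275 probe sets with a p under 0.05 in LB, 285 (12.5%) were also under 0.05 in LSL, which is 6.30% of the LSL ones, and 206 of the 285 had the same sign. The 12.5% lies near the 11.7% of all probe sets, and the share of same signs was not counted over all of them. The difference of the group size effect between the lines, tested over 57 hens, passed at 0 probe sets (0%) after adjustment in limma and at 3523 (9.14%) before it. The larger count in LSL than in LB therefore shows no difference between the lines at any 1 probe set.

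The largest differences, picked after the values were seen, came from probe sets on which single hens differed widely. RAB22A, a GTPase of early endosomes, was higher by 1.22 (SE 0.63, 95% interval -0.07 to 2.51). Its hens split across a gap of 1.57 with no hen inside, with 10 of 14 hens of 54 and 6 of 15 hens of 36 on the upper side. The only larger difference, 1.29 (SE 0.68), was at a probe set without a gene symbol. Other probe sets of RAB22A were at 0.04 (SE 0.05) and 0.49 (SE 0.30), and the named one was at 0.15 (SE 0.10) in LSL. CA5A, a mitochondrial carbonic anhydrase, split in the same manner across a gap of 1.98, with 6 of 14 hens of 54 and 4 of 15 hens of 36 on the lower side. Its difference was -0.86 (SE 0.60) in LB and 0.79 in LSL, and its other probe sets were at 0.02 and -0.02 in LB.

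BROX, a BRO1-domain protein, had 6 of 15 hens of 36 above a gap of 1.17 and 0 of 14 hens of 54, and differed by -0.71 (SE 0.24). Of the hens left out, hen 16 was at 0.82, near the upper edge of that gap (0.86), and the 4 other probe sets of BROX lay between -0.04 and 0.01. MRPS6, another mitochondrial ribosomal protein, differed by -1.64 (SE 0.45) in the first array set and by -0.20 (SE 0.52) in the second. Its other probe set was at -0.09 (SE 0.06) over both sets. FIP1L1, a factor of RNA polyadenylation, was higher by 0.60 (SE 0.31), with its 3 other probe sets between -0.04 and 0.00. TRAPPC10, PPHLN1 and HAUS3 differed by -0.59, -0.62 and -0.57. Other probe sets of PPHLN1 were at 0.03 and -0.16, and those of TRAPPC10 between -0.45 and 0.08. In LSL, BROX was at -0.21 (SE 0.29), MRPS6 at -0.03 (SE 0.11) and FIP1L1 at -0.01 (SE 0.08). There TRAPPC10 was at -0.08 (SE 0.19), PPHLN1 at 0.12 (SE 0.14) and HAUS3 at -0.01 (SE 0.06).

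CCK, which encodes the neuropeptide cholecystokinin, was lower in groups of 54 at both probe sets. At the first, the hens of 54 ran from -3.09 over -0.73 to 0.74 and the hens of 36 from -1.06 over -0.06 to 1.10. The hens of 54 spread more widely, with an SD of 1.18 against 0.66, and 6 of 14 lay below every hen of 36. The differences were -0.80 (SE 0.35, p = 0.0276) and -0.61 (SE 0.23, p = 0.0126) by limma before adjustment, and 0.04 and 0.02 in LSL. KIT, the receptor of stem cell factor, differed by -0.84 (SE 0.48) and RSPO3, a secreted enhancer of Wnt signalling, by -0.76 (SE 0.37). Other probe sets of RSPO3 were at -0.36 (SE 0.25) and -0.05 (SE 0.05). Hen 46, sampled on the left side, was the lowest of the 29 hens for CCK, KIT and RSPO3 alike. On the right side alone the differences were -0.54 and -0.47 for CCK, -0.65 for KIT and -0.48 for RSPO3. Of single hens left out, hen 25, sampled on the right side, shrank all of these differences most. Without it CCK was at -0.63 (limma p = 0.0779 before adjustment) and -0.51 (limma p = 0.0357). KIT was then at -0.65 and RSPO3 at -0.58. The part of side or of single hens in these differences was not tested.

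**Figure D4:**
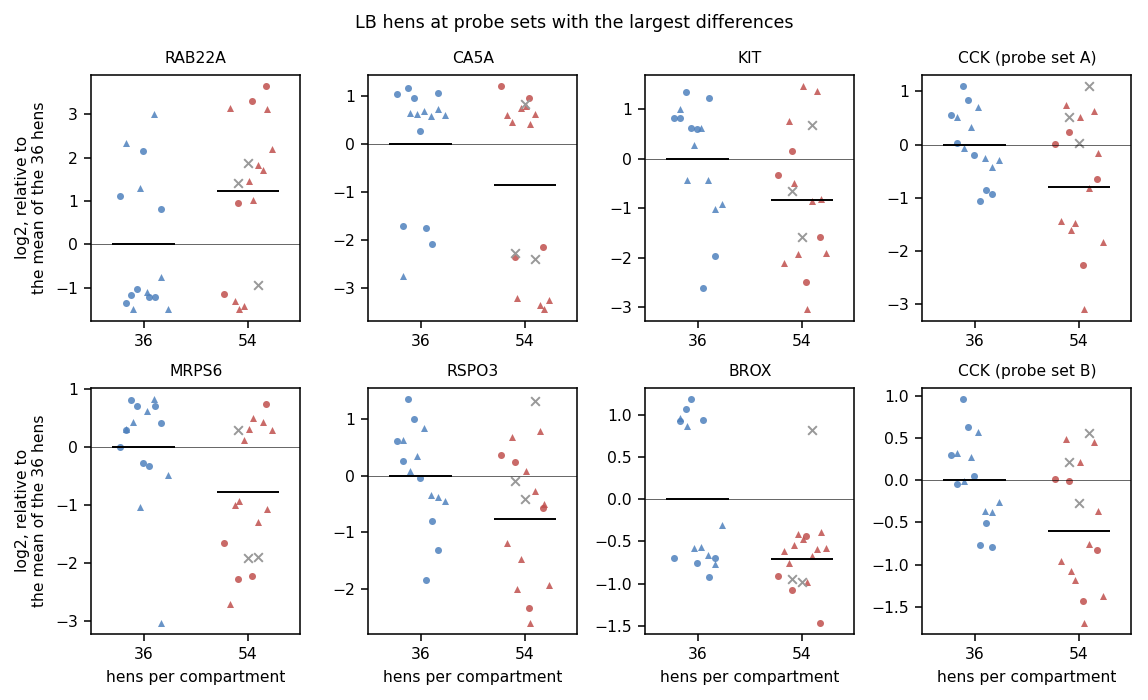
Values of single LB hens (log2, relative to the fitted mean of the 36 hens of the same array set) at 8 of the probe sets with the largest differences, with symbols as in the plot of the smallest p-values. RAB22A, CA5A and BROX fall into separate clouds of hens in at least 1 group size, while CCK, KIT and RSPO3 spread over a range of 2 to 5 log2 units.

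Groups of genes were then described by 28 lists on stress, signalling, metabolism, immunity and cell types, in which each gene was represented by 1 probe set. Several genes named from them have more, whose values are not given. Among these are RPS14 and TCF7L2 with 5 probe sets, PER3 and NPY5R with 4, and CAT and DACH2 with 3. The lists held 699 different measured genes, and 0 of them passed the adjusted threshold in limma. At an unadjusted p under 0.05, 25 were higher and 13 lower. Over all 13009 genes, 464 (3.57%) were higher and 311 (2.39%) lower, with a median difference of 0.00. The counts of each list below stand beside these shares, and no list was tested as a set. The medians of the lists lay between -0.08 and 0.06, 10 of them above 0 and 18 below. Of the 699 genes, 635 had a 95% interval within 0.5 in either direction and 691 within 1.

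**Figure D5:**
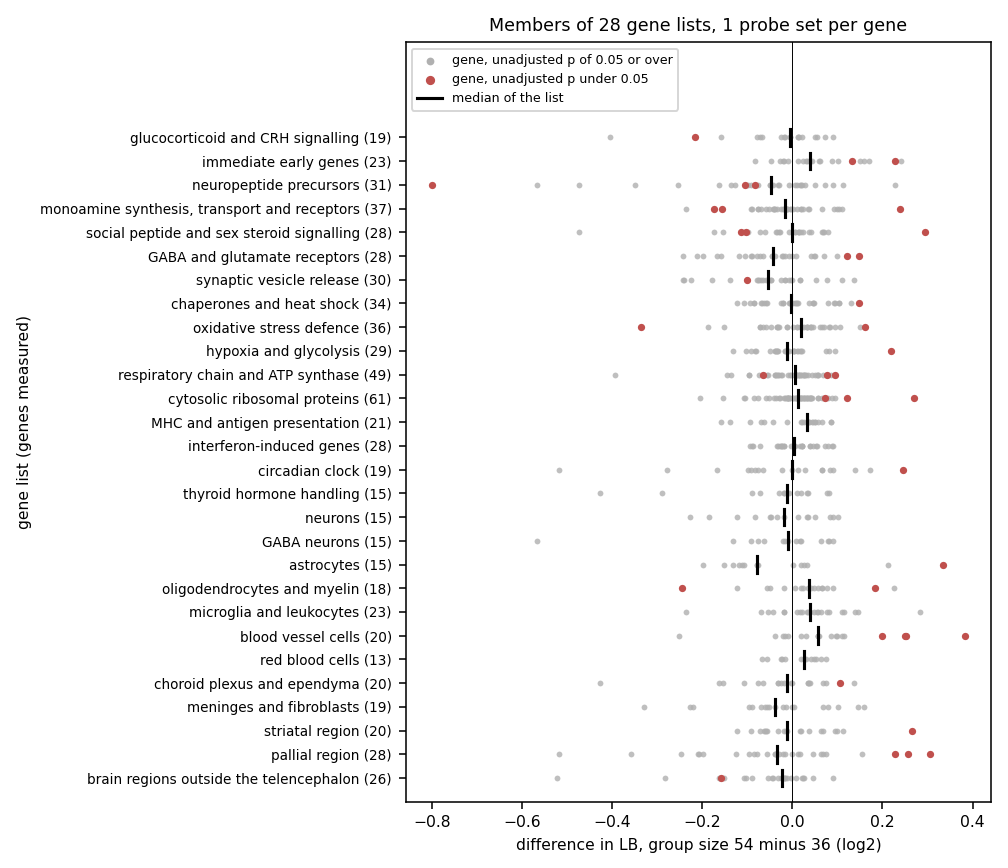
Difference between group sizes in LB (log2) of each gene in 28 lists, with the number of genes measured in brackets. Red points have an unadjusted p under 0.05 and black bars are medians, and most points lie within 0.25 of 0 in either direction.

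No gene of the stress axis passed the adjusted threshold, and the 95% interval lay within 0.5 in either direction for 17 of 19. Of the 19 genes of glucocorticoid and CRH signalling, 0 were higher and 1 was lower at p under 0.05, with a median of -0.01. That gene was FKBP5, a chaperone of the glucocorticoid receptor which corticosteroids induce, at -0.22 (SE 0.10, 95% interval -0.42 to -0.01). FKBP5 has 3 probe sets, of which only the 1 of the list is given. Its hens of 54 ran from -0.62 over -0.26 to 0.16 and its hens of 36 from -0.48 over -0.05 to 0.51. It differed by -0.42 (SE 0.16) in the first array set and by -0.08 (SE 0.11) in the second, and by 0.00 in LSL. NR3C1, the glucocorticoid receptor, differed by -0.07 (SE 0.06), CRH by 0.09 (SE 0.06) and POMC, the precursor of corticotropin, by 0.07 (SE 0.05). SGK1, another target of corticosteroids, differed by -0.40 with a wide SE of 0.28 (95% interval -0.97 to 0.17). Among 34 chaperones 1 was higher, HSPA13 at 0.15 (SE 0.05), and its value in LSL was -0.18. Its interaction of line and group size had the smallest p of the genes named (9.6e-05, limma adjusted p = 0.435).

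Among immediate early genes, which follow neuronal activity, 17 of 23 lay above 0, as did 6550 of all 13009 genes. The 23 genes had a median of 0.04, with 2 higher and 0 lower at an unadjusted p under 0.05. The 2 were DUSP6, a phosphatase of ERK kinases, at 0.13 (SE 0.06) and NR4A2, a nuclear receptor, at 0.23 (SE 0.11). EGR1 differed by 0.17 (SE 0.09) and FOS by 0.06 (SE 0.08). The mean of the 23 genes ran from -0.08 to 0.20 in the hens of 54 and from -0.18 to 0.17 in the hens of 36, so the groups overlapped nearly whole.

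Of 31 neuropeptide precursors, 0 were higher and 3 were lower, with a median of -0.05, beside 3.57% higher and 2.39% lower over all genes. Beside CCK these were NMU (neuromedin U) at -0.10 (SE 0.04) and GAL (galanin) at -0.08 (SE 0.04). VIP differed by -0.57 (SE 0.33). Among 37 genes of monoamine synthesis, transport and reception, 1 was higher and 2 were lower. HTR7, a serotonin receptor, was at 0.24 (SE 0.07) with 12 of 14 hens of 54 above the median of 36, but at 0.02 with hens 7, 8 and 16 included. DRD3, a dopamine receptor, differed by -0.16 (SE 0.06) and HTR2B, another serotonin receptor, by -0.17 (SE 0.07). Of 28 genes of social peptides and sex steroids, 1 was higher and 2 were lower. NPY5R, a receptor of neuropeptide Y, was at 0.30 (SE 0.12) in all hens used, at 0.62 (SE 0.12) in the second array set and at -0.20 (SE 0.13) in the first. SRD5A3 and SRD5A1, of the steroid reductase family, differed by -0.10 and -0.11, SRD5A1 with 0.10 (SE 0.06) in the first array set and -0.25 (SE 0.06) in the second.

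At synapses, GABA and glutamate receptors had 2 of 28 genes higher, GRM2 at 0.15 (SE 0.07) and GRIA4 at 0.12 (SE 0.06), and a median of -0.04. GRIA4 was at -0.07 with hens 7, 8 and 16 included. The 30 genes of synaptic vesicle release had 24 of 30 below 0 and a median of -0.05, while 6550 of all 13009 genes lay above 0. At p under 0.05 there was 1, STX7, a syntaxin of endosomes, at -0.10 (SE 0.04). SYT1, the calcium sensor of transmitter release, differed by -0.24 (SE 0.15). The mean over these 30 genes ran from -0.15 to 0.02 in the hens of 54 and from -0.16 to 0.17 in the hens of 36. In hens 7, 8 and 16, left out for 5′ loss, that mean was -0.28, -0.51 and -0.36.

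In the metabolic lists, genes at an unadjusted p under 0.05 stand beside shares of 3.57% higher and 2.39% lower over all genes. Oxidative stress defence had 1 of 36 higher, GPX3 at 0.16 (SE 0.08), and 1 lower, CAT (catalase) at -0.34 (SE 0.13). CAT differed by -0.55 (SE 0.16) and -0.19 (SE 0.17) in the first and second array set and by 0.17 in LSL. Hypoxia and glycolysis had 1 of 29 higher, the hypoxia factor EPAS1 at 0.22 (SE 0.10). The respiratory chain had 2 of 49 higher and 1 lower, NDUFB6 at 0.08, NDUFA1 at 0.10 and SDHA at -0.07. Cytosolic ribosomal proteins had 3 of 61 higher, RPS14 at 0.27 (SE 0.10), RPLP0 at 0.12 and RPS26 at 0.07, and a median of 0.01. The circadian clock had 1 of 19 higher, PER3 at 0.25 (SE 0.10). Thyroid hormone handling had 0 of 15, with a median of -0.01.

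Immune lists held none, beside 3.57% higher and 2.39% lower over all genes. Lists of 21 to 28 genes are short for such shares, so no lack is read from this. MHC and antigen presentation (21 genes, median 0.03), interferon-induced genes (28 genes, median 0.00) and microglia and leukocytes (23 genes, median 0.04) had 0 genes at p under 0.05 in either direction. Interferon-induced genes averaged from -0.16 to 0.17 in the hens of 54, within the range of -0.33 to 0.40 in the hens of 36.

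Blood vessel cells had the largest share of the lists, with 4 of 20 genes higher and 0 lower and a median of 0.06, at 1 probe set per gene. EGFL7 has 5 probe sets, RGS5 3 and CLDN5 2, and only the 1 of the list is given for each. EGFL7, which endothelial cells secrete, ran from -0.30 over 0.37 to 0.95 in the hens of 54 and from -0.46 over -0.07 to 0.69 in the hens of 36. It was higher by 0.38 (SE 0.12, p = 0.00407 by limma before adjustment, adjusted p = 0.771), and 13 of 14 hens of 54 lay above the median of 36. ENG (endoglin), an endothelial receptor of the TGF-beta family, was at 0.20 (SE 0.06), also with 13 of 14 hens above that median. RGS5, a marker of pericytes, was at 0.25 (SE 0.08) and CLDN5, a claudin of the tight junctions of brain vessels, at 0.25 (SE 0.09).

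All 4 had the same sign in both array sets and with all 32 LB hens, at 0.43 for EGFL7, 0.25 for ENG, 0.18 for RGS5 and 0.11 for CLDN5. The 4 were picked by p over hens that these fits reuse, so this is no independent support. In LSL they were at 0.07, -0.03, -0.04 and 0.12. Other vessel genes did not share these sizes, such as PECAM1 at -0.25 (SE 0.25), CDH5 at 0.06, KDR at 0.03 and FLT1 at -0.02. Of the 20 genes, 15 lay above 0, as did 6550 of all 13009 genes, and this count was not tested. The mean over the 20 genes ran from -0.07 over 0.09 to 0.23 in the hens of 54 and from -0.16 over 0.02 to 0.26 in the hens of 36. None of the 4 passed the adjustment, so no rise of vessel genes is established. A larger share of vessel cells in the sample and more RNA of these genes per vessel cell cannot be told apart in bulk tissue. Red blood cell genes had 0 of 13 at p under 0.05 and a median of 0.03.

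Markers of neural cell types and of neighbouring tissue gave 0 of 15 neuronal genes (median -0.02), 0 of 15 genes of GABA neurons (median -0.01) and 0 of 19 genes of meninges and fibroblasts (median -0.04). Astrocytes had 1 of 15 higher, SPARCL1 at 0.34 (SE 0.16), which was at 0.77 (SE 0.18) in the second array set and -0.33 (SE 0.17) in the first. The median of the astrocyte genes was -0.08. Oligodendrocytes and myelin had SOX10, a transcription factor of that lineage, at 0.18 (SE 0.08) and MOG, a myelin protein, at -0.25 (SE 0.11) among 18 genes, with a median of 0.04. Choroid plexus and ependyma had CLIC6 at 0.10 (SE 0.05) among 20 genes, with a median of -0.01.

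Region markers bear on whether the dissected pieces were alike. Of 28 pallial genes 3 were higher, FEZF2 at 0.31 (SE 0.10), DACH2 at 0.26 (SE 0.09) and NR4A2, and the median was -0.03. FEZF2, a transcription factor of projection neurons in mammals, had all 14 hens of 54 above the median of 36, and those hens ranged from 0.12 to 0.55 within the span of -0.62 to 0.79 of the hens of 36. RORB, in the same list, differed by -0.52 (SE 0.28). Of 20 striatal genes 1 was higher, PPP1R1B (DARPP-32), the dopamine-regulated phosphatase inhibitor, at 0.27 (SE 0.11). Of 26 genes of brain regions outside the telencephalon 1 was lower, TCF7L2 at -0.16 (SE 0.07). Their mean lay between -0.13 and 0.01 in the hens of 54 and between -0.12 and 0.55 in the hens of 36, where the hen numbered 54, housed in a group of 36, was the highest. The part of dissection in the group size differences was not tested.

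The residual SD of single hens had a median of 0.136 over probe sets. The difference between group means had a median size of 0.0384 and a median SE of 0.0519. Means over 14 and 15 hens vary less than single hens, so the SD and the size of the difference are not like for like. The SD within array sets had a median of 0.128 in the 14 hens of 54 and 0.137 in the 15 hens of 36, and it was higher in the hens of 54 at 39.4% of probe sets. Within the first array set this share was 41.2% and within the second 45.6%. With hens 7, 8 and 16 included it was 57.1%, so which group varied more turned with those 3 hens. No test of the spread was made.

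The hens left out were all from groups of 54 and all in the first array set. On probe sets of beta-actin, the 5′ minus 3′ signal was -1.69, -2.88 and -2.89 in hens 7, 8 and 16, while the other 14 hens of 54 lay between -0.37 and 0.17 and the hens of 36 between -0.76 and 0.24. In the 29 hens used, this measure differed by 0.05 between group sizes (permutation test within array sets, 100000 resamples, two-sided p = 0.531). The 3 hens were left out by this same measure, so that test cannot show that RNA quality was alike. Over all 32 LB hens the difference was -0.44 (same permutation test, p = 0.104). With all 32 hens, 0 probe sets passed the adjusted threshold in limma and 4462 had an unadjusted p under 0.05. The 3 hens lay far from the others for some genes named above, with ARHGAP42 at -1.01 and CCDC30 at -0.56 in hen 8, and INTS1 at -0.61 in hen 8 and -0.54 in hen 16. ORAOV1 was at -0.46 in hen 16.

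Within the array sets, the first alone (12 hens) gave 0 probe sets after adjustment and 3054 before it. The second alone (17 hens) gave 1 after adjustment and 3396 before it. That 1 was TSPOAP1, which binds proteins of the presynaptic active zone, at 0.27 (SE 0.03, limma adjusted p = 0.00861). It differed by -0.10 (SE 0.13) in the first set and by 0.12 (SE 0.07) over both.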

How the data were processed

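The authors hybridized RNA of each hen to 1 array and deposited log2 values made by Robust Multi-array Average (RMA) normalization, quantile normalized and centred on the median, per the labels and the methods. The median of each probe set was 0 within 1e-06 in hens 1 to 30 and in hens 31 to 60. Levels, signal over background and a filter on low expression cannot be had from centred values, so all 38535 probe sets were tested, and the number of arrays limits the precision.

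Differences were computed with limma 3.58.1 (lmFit and eBayes) in R 4.3.3, with the array set as a block, and two-sided p-values received the Benjamini-Hochberg adjustment across the whole array (threshold 0.05). The scripts were tested on simulated data. The interaction of line and group size was fitted over 57 hens. The values of single hens are relative to the fitted mean of the 36 hens in the array set.

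The probe table of the array gave 1 symbol to 27178 probe sets, several to 177 and none to 11180. Symbols of 26863 were found in the RefSeq table of GRCg7b. A gene was represented in its list by whichever probe set had the highest residual SD among LSL hens. The rule for naming took, with no probe set passing, the 12 smallest p-values in each direction among probe sets with 1 symbol, all other probe sets of these genes, and the 2 members of each list with the smallest p. Values of the other probe sets and of the list members are given above only in part. The 12 probe sets of the largest size and further list members, such as GAL, HTR2B, SRD5A1, NDUFA1, RPS26, RGS5, CLDN5, EGR1, FOS, CRH, NR3C1, SGK1, RORB, PECAM1, CDH5 and FLT1, were chosen after their values were seen. The comparison, the lists and the rule were chosen with earlier results of these data known, and no result here is independent support for those. Alternatives covered the hens left out, the block, each array set, the side, the actin measure, robust and weighted fits, other normalizations, the t-test of the methods and each hen left out in turn.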

Additional observations from a re-analysis of the deposited data

How the results depend on the processing

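The count of 0 probe sets past the adjusted threshold in LB held under every alternative run except the second array set alone, which gave 1, and it was 0 with each hen left out in turn. The 2275 probe sets at an unadjusted p under 0.05 became 4462 with hens 7, 8 and 16 included, the only alternative that moved this count by over 1.5 times, and ranged from 2012 (without hen 46) to 2585 (without hen 26) with each hen left out. Leaving out hens 10, 25 and 26, chosen after seeing the data for their actin values, gave 0 and 2439. All 24 probe sets with the smallest p kept their sign under the alternatives run, which reuse hens on which these probe sets were chosen. Signs turned for some other genes named, among them the following. With all 32 hens GRIA4 was at -0.0668, HIF1A at -0.0704, IFIH1 at -0.106, CRYM at -0.0523 and DACH2 at -0.0409. In the first array set alone NPY5R was at -0.199, HIF1A at -0.0902, IFIH1 at -0.087, CRYM at -0.0621, SPARCL1 at -0.331, TSPOAP1 at -0.102 and SRD5A1, lower in the other fits given, at 0.101. The cause was not tested. The medians of the 28 lists moved by less than the SD between hens of the list mean when each gene was taken as the median of its probe sets. That SD is wide beside list medians of -0.08 to 0.06, so this comparison could hardly show a change. The median turned sign for neurons, from -0.0188 to 0.00177, and for thyroid hormone handling, from -0.0108 to 0.0115. For CCK the differences ran from -0.631 to -0.918 and from -0.512 to -0.68, and for EGFL7 from 0.316 to 0.445, with each hen left out. No paired analysis was possible because the labels number every hen only once. Centred values carry no signal over background, so dim probe sets could not be set apart.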
